A study of Mus musculus with 9 samples.

Results

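The genes described here encode the enzymes that attach glutathione, sulfate or glucuronic acid to small molecules, together with 6 enzymes of the oxidative stress response (Nqo1, Gclc, Gclm, Hmox1, Txnrd1 and Srxn1). They were chosen by symbol: glutathione S-transferases (Gst classes alpha, kappa, mu, omega, pi, theta and zeta, and microsomal Mgst), sulfotransferases (Sult) and UDP-glucuronosyltransferases (Ugt). The choice gave 74 genes of the 49585 gene identifiers in the data: 22 Gst, 3 Mgst, 21 Sult and 22 Ugt genes and the 6 stress-response enzymes. RNA was measured in mouse prostate basal cells that had been sorted by flow cytometry from C57BL/6J mice and grown as organoids for 5 days. RD7 organoids (n = 3 libraries) received R-spondin1 at 500 ng/ml and dihydrotestosterone (DHT) at 100 nM, R organoids (n = 3) received R-spondin1 at 500 ng/ml without DHT, and BM organoids (n = 3) received the basement medium alone. All 3 media shared B27, HEPES, GlutaMAX, penicillin-streptomycin, EGF at 50 ng/ml, Noggin at 100 ng/ml, the TGF-β receptor inhibitor A83-01 at 200 nM, the ROCK inhibitor Y-27632 at 10 µM and N-acetylcysteine at 1.25 mM. N-acetylcysteine is a source of cysteine for glutathione synthesis, so every group carried it. No group had DHT without R-spondin1.

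Conjugation makes reactive or fat-soluble molecules more soluble and easier to pump out of the cell. Glutathione S-transferases join electrophiles, such as products of lipid peroxidation, to glutathione. Sulfotransferases take sulfate from PAPS (3'-phosphoadenosine 5'-phosphosulfate) and place it on phenols, steroids and amines, while UDP-glucuronosyltransferases take glucuronic acid from UDP-glucuronic acid. In prostate these reactions bear on steroid hormones, because sulfated or glucuronidated steroids no longer bind their receptors. Gclc and Gclm form glutamate-cysteine ligase, the rate-limiting enzyme of glutathione synthesis, and several of the genes are targets of the transcription factor NRF2 (gene Nfe2l2).

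Levels are FPKM, reads scaled by exon length and by the reads counted in the library, with mean ± SD over 3 libraries. Each log2 fold change (± SE) was taken on the log2(FPKM + 0.5) scale, which understates the change of genes at low levels, and a gene was called at a limma adjusted p under 0.05, adjusted over 15916 genes tested. The libraries held from 6505859 to 24141017 counted reads, with the fewest in BM 1. The library BM 3 stood apart for these genes: it was the highest of the BM libraries for 19 of 22 tested Gst and Mgst genes, with a median difference of 0.74 on the log2 scale to the mean of the other BM libraries, against -0.00 over all genes tested. The Gst and Mgst genes tested are short, with a median exon length of 1640 bases against 3843 over all genes tested, and shorter genes were higher in BM 3 (Spearman correlation between the difference and length of -0.45 across genes, which are not independent). Smaller shifts of the same genes were seen in other libraries. RD7 1 was the lowest RD7 library for 16 of the 22 (median difference -0.35), R 3 the lowest R library for 16 (-0.32) and BM 2 the lowest BM library for 16 (-0.50), while R 1 was the highest R library for 15 (0.26) and RD7 2 the highest RD7 library for 11 (0.22). Their correlations with length were 0.37 in RD7 1, 0.34 in R 3, 0.32 in BM 2, -0.30 in R 1 and -0.38 in RD7 2. Across all genes tested, the log2 fold change also correlated with length, at -0.22 for RD7 against R, -0.33 for R against BM and -0.38 for RD7 against BM, and the part of this trend in the results was tested by removing it. Endothelial marker genes summed to under 1 FPKM in every library, leukocyte markers to 5.13 to 6.78 FPKM in RD7, 5.84 to 6.87 in R and 4.97 to 5.85 in BM, and seminal vesicle markers to at most 1.07 FPKM. The 7 basal markers summed to 8464 to 9507 FPKM in RD7, 9914 to 10471 in R and 7322 to 8206 in BM. Of them 4 were lower in RD7 than in R (57.1%, against 17.7% of all genes tested) and 3 were not called (median log2 fold change -0.74). Krt5 stood at 2397 ± 91.9 FPKM in RD7 and 3484 ± 58.9 in R. The 7 luminal markers summed to 1656 to 2087 FPKM in RD7, 1484 to 1752 in R and 1987 to 2518 in BM. Of them 4 were higher (57.1%, against 13.3% of all genes tested) and 1 lower (14.3%, against 17.7%) in RD7 than in R. For R against BM, 4 were lower in R (57.1%, against 5.64%) with 3 not called. The part of these markers in the results was not tested. Genes that check the treatment were called as well: Fkbp5 (4.52 ± 0.18, limma adjusted p = 9.4e-08) and Zbtb16 (3.50 ± 0.15, limma adjusted p = 9.9e-08), both androgen receptor targets, were higher in RD7 than in R. Wif1, a secreted Wnt inhibitor (3.96 ± 0.13, limma adjusted p = 2.3e-07), and the Wnt targets Axin2 (2.46 ± 0.19, limma adjusted p = 1.8e-05) and Lgr5 (1.45 ± 0.11, limma adjusted p = 1.3e-05) were higher in R than in BM, and Lgr5 was lower in RD7 than in R (-1.44 ± 0.11, limma adjusted p = 4.6e-06). In bulk RNA, fewer cells of a type and less RNA per cell cannot be told apart.

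Of the 74 genes, 20 had no read in any library, 9 had reads but were too low to test, and 45 were tested. Glutathione S-transferases made up most of the RNA of the set. The 25 Gst and Mgst genes together summed to 2641 ± 393 FPKM in RD7, 1957 ± 293 in R and 1151 ± 434 in BM, and Gsto1 alone, an omega-class enzyme that reduces dehydroascorbate and mixed disulfides, held 39.1% ± 2.53 of that sum in RD7, 51.3% ± 1.35 in R and 29.2% ± 3.67 in BM. Gsta4, which conjugates the lipid peroxidation product 4-hydroxynonenal, held 22.2% ± 0.992 in RD7, 23.7% ± 1 in R and 26% ± 2.44 in BM. The sulfotransferases were low by comparison, and the 21 Sult genes summed to 29 ± 3.23 FPKM in RD7, 4.98 ± 1.36 in R and 14.4 ± 4.08 in BM. All 8 Sult2a genes, which encode hydroxysteroid sulfotransferases known from liver, were among the 12 Sult genes without a read. The 9 genes with reads that were too low to test were Gstm3, Gstp3, Gstt4, Sult1e1, Sult6b1, Ugt2b1, Ugt2b35, Ugt2b5 and Ugt8a, each under 1 FPKM in the mean of every group. Of the tested genes, Gstm4, Gstt1, Gstt3, Mgst2, Sult4a1, Hmox1, Srxn1 and the 9 Ugt1a genes were called in no comparison.

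With DHT added to R-spondin1, 4 of 7 tested sulfotransferase genes and 10 of 19 tested Gst genes rose. The other 3 Sult genes and 8 Gst genes were not called, and 1 Gst gene fell. The 4 Sult genes (Sult5a1, Sult1d1, Sult1b1 and Sult1a1) reached 0.5 CPM, the limit for testing, only in RD7 libraries. They were tested only because they were high in RD7, so the share of tested genes that rose is raised by the filter. Of all 21 Sult genes, 4 were called higher. The counts and shares given next include these 4 genes. Between RD7 and R, 17 of the 45 tested genes were higher in RD7 (37.8%, against 13.3% of all genes tested), 3 were lower (6.67%, against 17.7%) and 25 were not called, where 31.0% of all genes tested were called either way. The count of 17 was 17 without RD7 1, 16 without R 1 and 13 without RD7 2, R 2 or R 3. The median log2 fold change of the 45 was 0.18, or 0.55 over the 36 genes outside the Ugt1a locus, against -0.09 over all genes tested. Of those 36 genes 47.2% were higher and 8.33% lower, since the Ugt1a genes, all not called, largely repeat 1 measurement. Over all genes, 2118 were higher and 2812 lower in RD7, and median-of-ratios scaling turned this split to 2532 higher and 2184 lower. For R against BM, 5 genes were higher in R (11.1%, against 4.36% of all genes tested), 5 were lower (11.1%, against 5.64%) and 35 were not called, where 10.0% of all genes tested were called. The 5 higher genes include Gsto2, which passed the filter only through R and RD7 libraries. The median of the 45 was 0.07, against 0.02 over all genes. Outside the Ugt1a locus, 13.9% were higher and 13.9% lower in R. Separate mice or sorts for the 3 libraries of a group are not stated in the labels, so the p-values measure the spread between these samples, which may be technical.

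**Figure D1:**
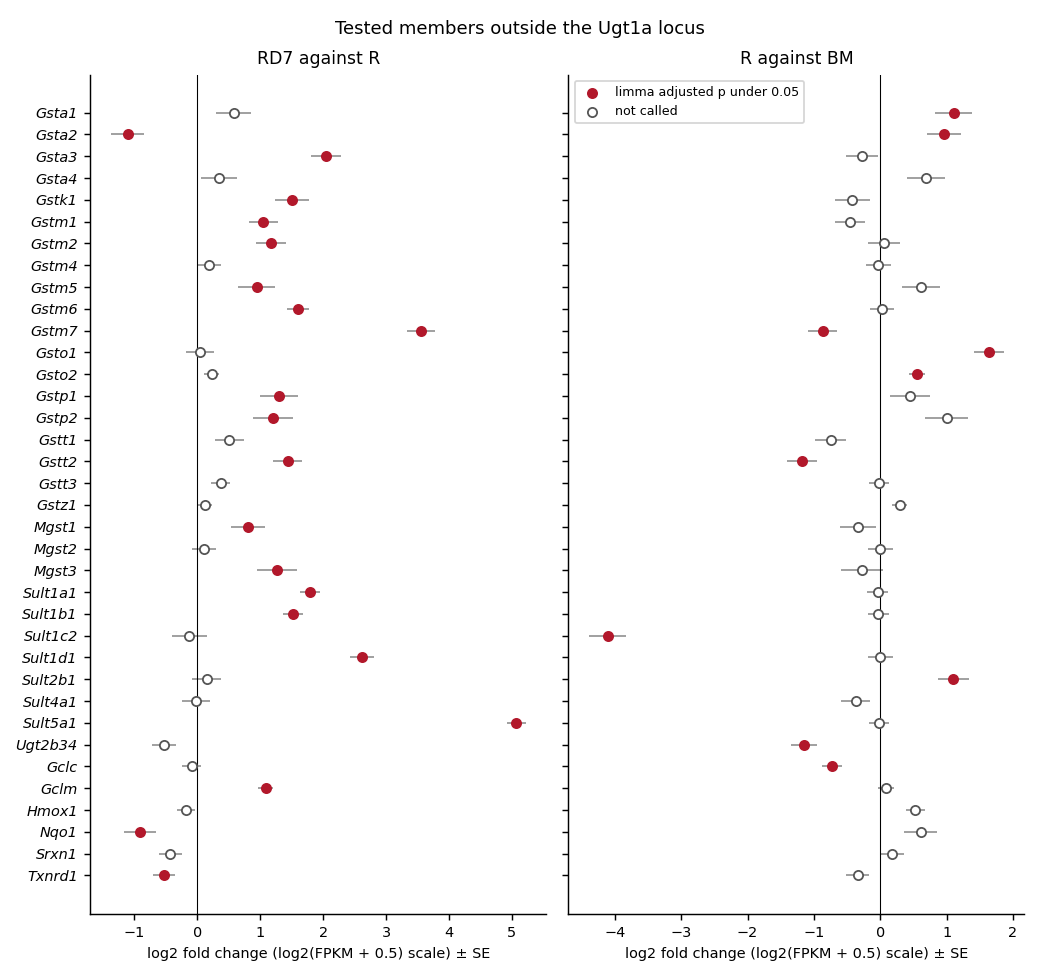
Log2 fold change ± SE of the 36 tested genes outside the Ugt1a locus, for RD7 against R and for R against BM. Filled points are genes called by limma at an adjusted p under 0.05. Sult5a1 (5.07) lies farthest to the right for RD7 against R and Sult1c2 (-4.11) farthest to the left for R against BM.

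The sulfotransferase genes divided into a group present in RD7 and nearly absent from both other media, and a pair called between R and BM. The upstream sequences of 3 of the first group (Sult5a1, Sult1d1, Sult1a1) and of Sult1c2 are printed, the first 3 as examples of genes with at most 15 reads over the R libraries and the last because it had the largest change of the set between R and BM. Each is the 250 bases before the annotated start (RefSeq, GRCm38.p6), on the minus strand, at chr8:123158281-123158530 for Sult5a1, chr5:87569007-87569256 for Sult1d1, chr7:126676419-126676668 for Sult1a1 and chr17:53845959-53846208 for Sult1c2. In GENCODE M21, the annotation used for gene positions here, Sult1c2 starts at 53846339, so its window lies wholly inside the gene. The other 3 windows overlap their GENCODE genes at 1 end. Capitals mark matches, on either strand, to TGTTCT, the core of an androgen receptor half-site, or to CTTTGAA, a core of TCF/LEF sites.
Sult5a1: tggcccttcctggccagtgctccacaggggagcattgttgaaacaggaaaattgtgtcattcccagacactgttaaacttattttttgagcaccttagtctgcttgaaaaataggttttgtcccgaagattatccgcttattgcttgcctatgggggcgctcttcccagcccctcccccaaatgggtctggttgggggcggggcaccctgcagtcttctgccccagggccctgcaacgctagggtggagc
Sult1d1: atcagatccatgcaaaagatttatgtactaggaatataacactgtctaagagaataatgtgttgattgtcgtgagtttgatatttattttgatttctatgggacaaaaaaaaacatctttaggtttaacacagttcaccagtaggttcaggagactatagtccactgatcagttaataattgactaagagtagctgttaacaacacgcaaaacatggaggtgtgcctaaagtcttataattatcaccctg
Sult1a1: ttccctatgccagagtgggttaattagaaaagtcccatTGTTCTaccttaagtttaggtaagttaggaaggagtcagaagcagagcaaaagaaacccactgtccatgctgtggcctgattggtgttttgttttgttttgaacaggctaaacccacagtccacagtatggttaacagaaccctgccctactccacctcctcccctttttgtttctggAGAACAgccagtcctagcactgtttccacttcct
Sult1c2: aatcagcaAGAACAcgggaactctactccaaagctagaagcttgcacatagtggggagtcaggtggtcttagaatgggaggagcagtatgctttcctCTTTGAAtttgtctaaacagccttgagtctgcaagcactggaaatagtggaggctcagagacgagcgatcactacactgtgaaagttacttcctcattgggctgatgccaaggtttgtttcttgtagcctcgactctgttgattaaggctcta
Sult1a1 held 2 matches to TGTTCT and Sult1c2 held 1, and Sult1c2 held 1 match to CTTTGAA, while the windows of Sult5a1 and Sult1d1 held no match to either.

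Sult5a1 (chromosome 8, 123140192 to 123158315), a sulfotransferase-family gene, changed most of the set with DHT. It stood at 15.2, 20.1 and 20 FPKM in the RD7 libraries, against 0.0851, 0.0292 and 0.0627 in the R libraries and 0.0696, 0.0469 and 0.0808 in the BM libraries. Every RD7 library lay far above every other library, and R and BM overlapped. The reads numbered 4391 in RD7, 15 in R and 14 in BM, and the mean was 312-fold higher in RD7 than in R (log2 fold change 5.07 ± 0.15, limma adjusted p = 1.2e-08).

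Sult1d1, Sult1b1 and Sult1e1 lie next to each other on the minus strand of chromosome 5, from 87513339 to 87591594. Sult1d1, known in mouse to act on catecholamines, stood at 3.27, 1.66 and 3.03 FPKM in RD7 and had no read in any R or BM library. Its 348 reads in RD7 against a floor of 3 reads over a group made it at least 132-fold higher than in R and at least 109-fold higher than in BM (log2 fold change against R 2.62 ± 0.19, limma adjusted p = 4.0e-06). Sult1b1, which sulfates phenols and thyroid hormones, stood at 0.844, 0.697 and 1.47 FPKM in RD7, against 0.0225, 0 and 0.0166 in R and 0, 0.0149 and 0.055 in BM. With 148 reads in RD7, 2 in R and 4 in BM, all of its RD7 libraries lay above all others (log2 fold change against R 1.52 ± 0.16, limma adjusted p = 8.1e-05), and the read rate was 83.6 times that in R, with a 95% counting interval of 22.7 to 697. Sult1e1, the estrogen sulfotransferase, had 13, 7 and 8 reads in RD7 (0.585, 0.295 and 0.381 FPKM) and none in R or BM. It was too low to test and was at least 10.6-fold higher than in R by the same floor. The Ugt2 genes that lie beside them, from Ugt2b1 at 86916638 to Ugt2a1 at 87490871, had at most 8 reads per gene in RD7, 16 in R and 22 in BM.

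Sult1a1 (chromosome 7, 126672865 to 126676432), the phenol sulfotransferase, stood at 0.964, 1.77 and 1.18 FPKM in RD7, against 0.0416, 0 and 0 in R and 0, 0.0825 and 0 in BM. It had 107 reads in RD7, 1 in R and 3 in BM, so that every RD7 library lay above the rest (log2 fold change against R 1.79 ± 0.16, limma adjusted p = 1.7e-05). The read rate was 121 times that in R, with a 95% counting interval of 21.2 to 4818. Sgf29, on the opposite strand, shares 61 of its 1507 exon bases. Intervals and floors cover counting error only, since amplified reads without molecular identifiers are not independent molecules. These 4 calls (Sult5a1, Sult1d1, Sult1b1 and Sult1a1) held without any 1 library and in every other setting in which the gene was tested.

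Sult1c2 (chromosome 17, 53829637 to 53846339), a member of the family that sulfates small phenols, fell with R-spondin1. It stood at 0.339, 0.0466 and 0.25 FPKM in R, against 13, 7.97 and 14.9 in BM, a mean 56.4-fold lower in R (log2 fold change -4.11 ± 0.28, limma adjusted p = 8.0e-06). In RD7 it stood at 0.121, 0 and 0.353 FPKM, which overlapped R (log2 fold change against R -0.13 ± 0.28, limma adjusted p = 0.759). Markers of urothelium moved beside it, not all in 1 direction. The 6 genes summed to 21 to 25.4 FPKM in RD7, 37.9 to 45.7 in R and 209 to 317 in BM. Of the 5 tested, 3 were lower in R than in BM (60%, against 5.64% of all genes tested), 1 was higher (20%, against 4.36%) and 1 was not called. Upk3a, an uroplakin, stood at 1.57 ± 0.294 FPKM in R and 92.9 ± 26.7 in BM, while Krt20, a keratin of umbrella cells, stood at 5.39 ± 0.703 FPKM in R and 0.756 ± 0.0559 in BM (2.22 ± 0.18, limma adjusted p = 2.3e-05). Between RD7 and R, 1 of the 5 was higher in RD7 (20%, against 13.3% of all genes tested) and 2 were lower (40%, against 17.7%). Their part in the fall of Sult1c2 was not tested.

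Sult2b1 (chromosome 7, 45729983 to 45784669), which sulfates cholesterol and 3β-hydroxysteroids, moved the other way. It stood at 5.6, 4.27 and 3.18 FPKM in R, against 1.56, 1.31 and 2.4 in BM, and no R library overlapped the BM libraries (log2 fold change 1.10 ± 0.23, limma adjusted p = 0.013). Leaving out BM 1 or R 2 gave an adjusted p of 0.053, and leaving out R 1 gave 0.063. In RD7 its 4.05, 5.23 and 5.14 FPKM overlapped R (0.15 ± 0.23, limma adjusted p = 0.647). Lmtk3 and Gm31597, on the opposite strand, share 321 of its 3950 exon bases.

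**Figure D2:**
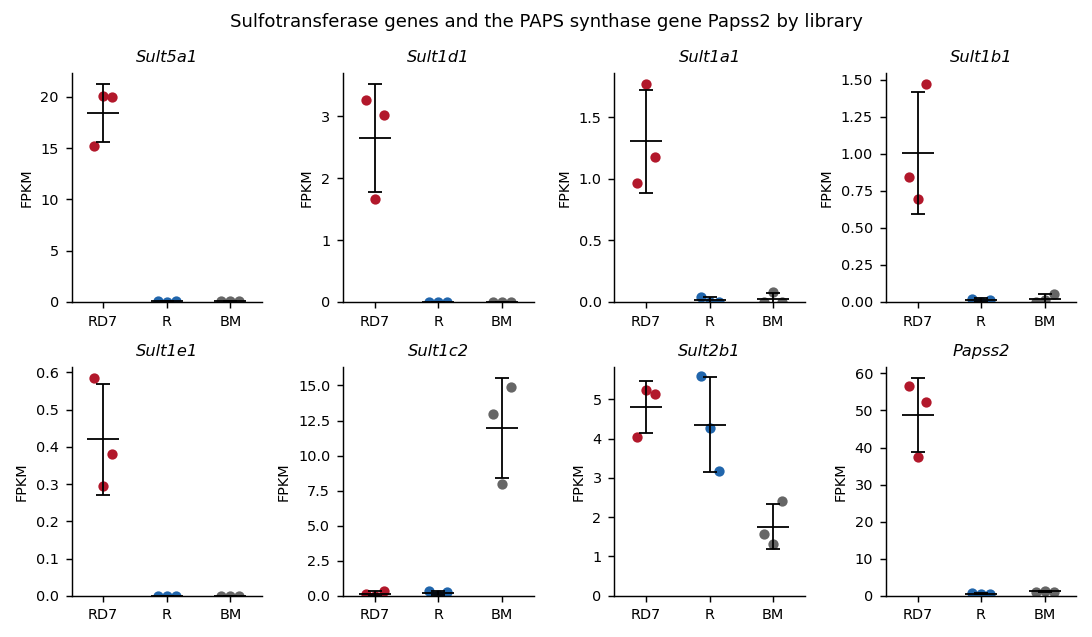
FPKM of 7 sulfotransferase genes and of Papss2 in the 3 libraries of each group, with horizontal lines for the mean and bars for the SD. Sult5a1, Sult1d1, Sult1a1, Sult1b1, Sult1e1 and Papss2 are highest in the 3 RD7 libraries, Sult1c2 is highest in the 3 BM libraries, and Sult2b1 is lower in BM than in both other groups.

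Genes that supply the sulfate donor were read beside the sulfotransferases. Papss2, a synthase that makes PAPS from ATP and sulfate, stood at 56.5, 37.5 and 52.4 FPKM in RD7, against 0.672, 0.343 and 0.534 in R and 1.14, 1.4 and 1.04 in BM. All RD7 libraries were far above the others, 94.5-fold by the mean against R (log2 fold change 5.59 ± 0.20, limma adjusted p = 4.1e-08). The other synthase gene, Papss1, stood at 115 ± 9.17 FPKM in RD7, 106 ± 3.79 in R and 111 ± 15.6 in BM and was not called (0.11 ± 0.13 for RD7 against R, limma adjusted p = 0.547). Of the 11 genes listed for the supply of PAPS and UDP-glucuronic acid, 5 were higher in RD7 than in R (45.5%, against 13.3% of all genes tested) and 3 lower (27.3%, against 17.7%). Slc35b2, which carries PAPS into the Golgi, rose by a log2 fold change of 0.51 ± 0.12 (limma adjusted p = 0.011), and Slc26a2, a sulfate importer of the plasma membrane, fell by 1.80 on the log2 scale, to 2.08 ± 0.502 FPKM in RD7 against 8.4 ± 0.424 in R (limma adjusted p = 2.7e-05). On the side of glucuronic acid, Ugp2, which makes UDP-glucose, rose (0.62 ± 0.15, limma adjusted p = 0.0095) and Ugdh, which oxidises it to UDP-glucuronic acid, fell to 8.87 ± 0.622 FPKM in RD7 against 16.1 ± 1.28 in R (-0.83 ± 0.12, limma adjusted p = 6.9e-04).

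Glutathione S-transferase genes rose with DHT in several classes. Of 19 tested cytosolic and kappa Gst genes, 10 were higher in RD7 than in R (52.6%, against 13.3% of all genes tested), 1 was lower (5.26%, against 17.7%) and 8 were not called, with a median log2 fold change of 0.94, and 2 of the 3 Mgst genes were higher. The mu class, clustered on chromosome 3 from 107895821 to 108044894, had 5 of its 6 tested genes higher. Reads of near-identical copies (Gstm, Gsta1 with Gsta2, Gstp1 with Gstp2) may have been divided between them in counting, so the split within those groups is uncertain.

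Gstm7 had the largest change of the class. It stood at 20.5, 22.7 and 23.4 FPKM in RD7, against 1.64, 1.64 and 1.07 in R and 3.17, 2.1 and 4.14 in BM, with no overlap between any 2 groups. Its mean was 15.3-fold higher in RD7 than in R (log2 fold change 3.55 ± 0.22, limma adjusted p = 1.3e-06), and R was lower than BM (-0.87 ± 0.22, limma adjusted p = 0.031). The fall with R-spondin1 was less secure: the adjusted p was 0.097 without BM 1, 0.067 without R 1, 0.069 without R 2, 0.104 without R 3 and 0.054 without RD7 3. Gstm6 stood at 1.52, 1.84 and 2.02 FPKM in RD7, against 0.441, 0.108 and 0.255 in R and 0.232, 0.146 and 0.359 in BM. Its RD7 libraries were all above the rest (1.60 ± 0.18 against R, limma adjusted p = 1.2e-04). The abundant Gstm1 stood at 107, 150 and 153 FPKM in RD7, against 71.4, 68.2 and 55.9 in R and 88.8, 65.5 and 122 in BM. RD7 lay above R (1.05 ± 0.23, limma adjusted p = 0.0069) but overlapped BM. Gstm2 followed at 98.1 ± 16.6 FPKM in RD7 against 43.2 ± 6.06 in R (1.17 ± 0.24, limma adjusted p = 0.0048). Gstm5 was at 28.8 ± 4.21 FPKM in RD7 against 14.8 ± 2.34 in R (0.94 ± 0.29, limma adjusted p = 0.031), and its adjusted p was 0.073 without R 2, 0.108 without R 3, 0.103 without RD7 2 and 0.086 without RD7 3. For Gstm5, 4933431E20Rik on the opposite strand shares 178 of its 1278 exon bases. Gstm4 was not called in any comparison.

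In the alpha class, Gsta3, which in mouse conjugates aflatoxin epoxide, stood at 12.3, 17 and 17.1 FPKM in RD7, against 4.14, 3.18 and 2.8 in R and 3.47, 3.29 and 6.18 in BM. The RD7 libraries lay above all others (2.04 ± 0.24 against R, limma adjusted p = 1.5e-04), and R and BM overlapped. Gsta2 was the Gst gene that fell, at 0.237, 0.222 and 0.251 FPKM in RD7 against 1.28, 1.64 and 0.549 in R (-1.11 ± 0.26, limma adjusted p = 0.011), on 15 reads in RD7 and 83 in R. Gsta4 stood at 470, 687 and 608 FPKM in RD7, against 559, 454 and 383 in R and 245, 202 and 469 in BM. Its RD7 and R libraries overlapped, and so did R and BM.

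Single genes of other classes rose as well. Gstp1, the pi-class enzyme of epithelia, stood at 330, 485 and 361 FPKM in RD7, against 198, 132 and 146 in R and 98.3, 80.1 and 189 in BM. RD7 lay above both (1.30 ± 0.30 against R, limma adjusted p = 0.0086), and its neighbour Gstp2 was at 6.13 ± 1.64 FPKM in RD7 against 2.4 ± 0.808 in R (1.20 ± 0.32, limma adjusted p = 0.020; 0.073 without R 2, 0.069 without R 3 and 0.076 without RD7 2). Gstk1, the kappa enzyme of mitochondria and peroxisomes, stood at 5.02, 7.77 and 5.64 FPKM in RD7, against 1.79, 2.08 and 1.57 in R and 1.99, 1.92 and 4.34 in BM. It was higher in every RD7 library than in any other (1.51 ± 0.27 against R, limma adjusted p = 0.0023). Gstt2, a theta enzyme, stood at 8.81, 11 and 11.9 FPKM in RD7, against 3.57, 3.61 and 3.51 in R and 8.75, 6.02 and 12.4 in BM. R lay below both other groups, 2.97-fold below RD7 (1.44 ± 0.23, limma adjusted p = 0.001) and 2.54-fold below BM (-1.18 ± 0.23, limma adjusted p = 0.0079), while RD7 and BM overlapped (0.26 ± 0.23, limma adjusted p = 0.364). The most abundant theta gene, Gstt3, stood at 86.8, 111 and 90.8 FPKM in RD7, 73.3, 80.3 and 68 in R and 73.4, 65.1 and 87.9 in BM and was not called in any comparison, and Gstt1 was not called either.

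The microsomal enzymes are membrane-bound. Mgst1 stood at 94.6, 128 and 119 FPKM in RD7, against 74.5, 65.5 and 55.3 in R and 71.2, 57.6 and 133 in BM, with RD7 above R but not above BM 3. Its call was at the threshold (0.80 ± 0.27, limma adjusted p = 0.048), with an adjusted p of 0.059 without BM 1, 0.066 without R 1, 0.109 without R 2, 0.151 without R 3, 0.145 without RD7 2 and 0.126 without RD7 3. Mgst3, which can make leukotriene C4, was at 56 ± 10.1 FPKM in RD7 against 23.6 ± 8.17 in R (1.27 ± 0.32, limma adjusted p = 0.014; 0.060 without R 2, 0.055 without R 3 and 0.058 without RD7 2). Beside these genes, mesenchymal markers summed to 65.1 to 93.2 FPKM in RD7, 23.2 to 29.4 in R and 16 to 24.7 in BM, most of it Dcn, at 76.6 ± 14.1 FPKM in RD7 and 21.9 ± 2.71 in R. Dcn was the 1 marker of 8 called higher in RD7 than in R (12.5%, against 13.3% of all genes tested). Of the rest, 5 were lower (62.5%, against 17.7%) and 2 were not called (median of the 8 markers -0.38). Acta2, smooth muscle actin, stood at 1.29 ± 0.285 FPKM in RD7 and 3.69 ± 0.984 in R (-1.22 ± 0.23, limma adjusted p = 0.0034), and 5 of the 8 stayed under 1 FPKM in every library. Their part in these differences was not tested.

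**Figure D3:**
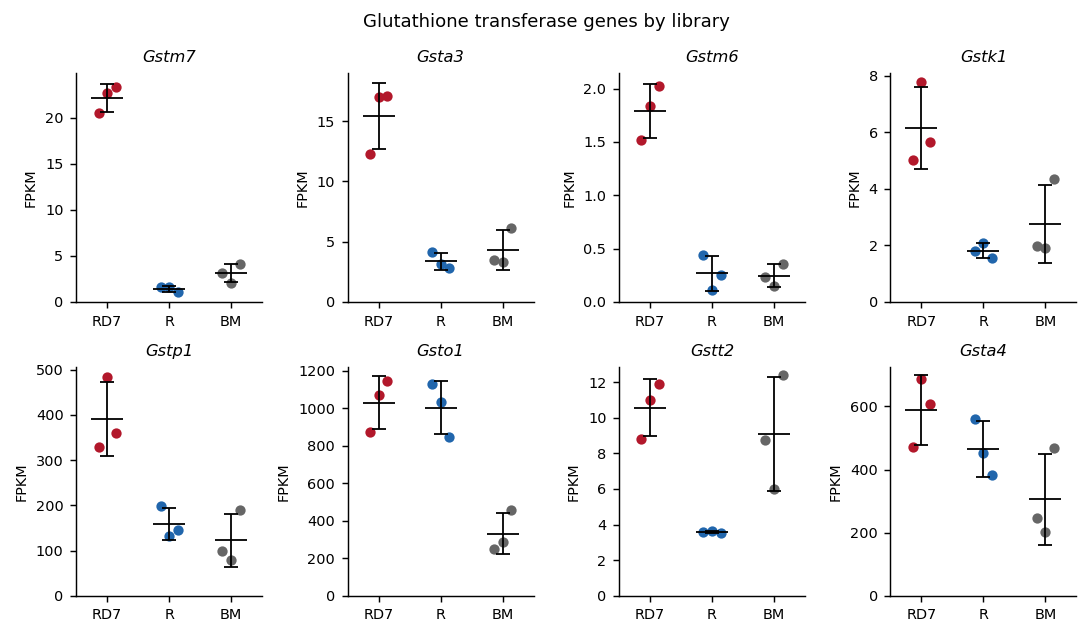
FPKM of 8 glutathione S-transferase genes in the 3 libraries of each group, with horizontal lines for the mean and bars for the SD. Gstm7, Gsta3, Gstm6, Gstk1 and Gstp1 are highest in RD7, Gsto1 is lower in BM than in both other groups, and BM 3 is the highest BM library in each panel.

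With R-spondin1 alone, Gsto1 of the omega class rose. Gsto1 (chromosome 19, 47854970 to 47864790) stood at 1127, 1032 and 848 FPKM in R, against 250, 287 and 456 in BM, and no libraries overlapped. The mean was 3.03-fold higher in R (log2 fold change 1.64 ± 0.22, limma adjusted p = 9.8e-04), the call held in every other setting, and RD7 at 872, 1072 and 1146 FPKM overlapped R (0.04 ± 0.22, limma adjusted p = 0.911). Its neighbour Gsto2 rose on few reads, 24 in R and 2 in BM (0.55 ± 0.12, limma adjusted p = 0.013; 0.065 without R 1, 0.053 without R 3 and 0.130 with the length trend removed). In reads the ratio was 9.91, with a 95% counting interval of 2.46 to 86.5. Gsto2 reached 0.5 CPM only in RD7 and R libraries, so it was tested only because it was high there.

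The alpha genes Gsta1 and Gsta2 were called higher in R than in BM on few reads. Gsta1 stood at 1.77, 1.35 and 0.966 FPKM in R, against 0.643, 0.0433 and 0.48 in BM, on 77 and 14 reads (1.11 ± 0.28, limma adjusted p = 0.029), and at 2.28, 1.86 and 2.66 FPKM in RD7. Leaving out BM 2 gave an adjusted p of 0.065, leaving out R 1 gave 0.124 and leaving out R 2 gave 0.097. Gsta2 stood at 1.28, 1.64 and 0.549 FPKM in R, against 0.131, 0.282 and 0.607 in BM, so that R 3 lay below BM 3 (0.96 ± 0.26, limma adjusted p = 0.047). Its call was lost in 14 of 18 settings, among them without BM 1 (0.169), BM 2 (0.123), R 1 (0.159), R 2 (0.179), RD7 1 (0.067), RD7 2 (0.064) or RD7 3 (0.077). Without BM 3, 4 more genes of the set were called higher in R: Gsta4 at an adjusted p of 0.0062, Gstm5 at 0.0046, Gstp1 at 0.023 and Gstp2 at 0.011, against 0.171, 0.212, 0.357 and 0.085 with it. For R against BM, 4 of the 10 calls (Gsto1, Gstt2, Sult1c2 and Ugt2b34) held in every setting, and for RD7 against R 14 of 20.

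RD7 against BM is the sum of both steps and shares its libraries with them. Here 20 of the 45 tested genes were higher in RD7 (44.4%, against 21.5% of all genes tested), 4 were lower (8.89%, against 25.3%) and 21 were not called, where 46.8% of all genes tested were called. Outside the Ugt1a locus, 55.6% of the 36 tested genes were higher and 11.1% lower. The genes higher in RD7 include the Sult genes that passed the filter only through RD7 libraries. They also include Gsto2, which passed it only through RD7 and R libraries. Of the 19 tested Gst genes, 13 were higher (68.4%) and 6 were not called. Gstm7 gave 2.68 ± 0.22, Gstp2 2.20 ± 0.32, Gsta3 1.77 ± 0.24, Gstp1 1.76 ± 0.30, Gsta1 1.70 ± 0.28 and Gsto1 1.68 ± 0.22. Gstz1, the maleylacetoacetate isomerase of tyrosine breakdown, stood at 16.2, 18.2 and 15.5 FPKM in RD7, 15.4, 15.8 and 14.4 in R and 11.3, 13.1 and 12.8 in BM. It was called for RD7 against BM and in neither other comparison (0.41 ± 0.12, limma adjusted p = 0.022; 0.066 without BM 1 and 0.083 without RD7 2). The same held for Gsta4 (1.02 ± 0.29, limma adjusted p = 0.017; 0.061 without BM 1, 0.064 without BM 2, 0.066 without RD7 2 and 0.054 without RD7 3), and Mgst3 at 0.99 ± 0.32 (limma adjusted p = 0.029) gave 0.090 without BM 1, 0.107 without BM 2, 0.102 without RD7 2 and 0.072 without RD7 3. Mgst3 also gave a limma adjusted p of 0.060 with the length trend removed and 0.070 with no filter. The genes lower in RD7 than in BM were Sult1c2, Ugt2b34, Gclc and Txnrd1.

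Glucuronosyltransferase RNA came almost wholly from the Ugt1a locus on chromosome 1 and from Ugt2b34. The 9 Ugt1a genes have a first exon each and share their last exons, and 1311 exon bases belong to all of them. In the deposited values reads of those bases were counted to every gene, so that Ugt1a5 and Ugt1a9 had equal reads in every library, 43080 in all. Ugt1a9, the highest of the 9 by FPKM, stood at 109, 98.6 and 124 in RD7, 122, 132 and 121 in R and 106, 137 and 107 in BM, and 0 of the 9 were called in any comparison by limma or limma-voom, with 0 at an unadjusted p under 0.05. These values are one measurement repeated and not 9 results.

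Reads beyond those of the gene with the fewest were therefore divided by the exon bases that no other Ugt1a gene uses. Only Ugt1a7c, Ugt1a6a, Ugt1a6b and Ugt1a1 had at least 100 such reads. For Ugt1a1, the bilirubin-conjugating enzyme, this own-exon value was 0.551, 0.516 and 0.454 FPKM in RD7, 2.2, 1.7 and 1.47 in R and 7.24, 9.85 and 10.5 in BM. It rests on few such reads: 9, 9 and 7 in RD7, 32, 36 and 29 in R and 43, 217 and 188 in BM. No groups overlapped, although the deposited value of the gene did (109 ± 12.7 FPKM in RD7, 124 ± 5.79 in R and 119 ± 17.3 in BM). In a fit chosen after seeing the data, with 15920 features, R was 5.15-fold lower than BM (-2.08 ± 0.18, limma adjusted p = 4.5e-05) and RD7 3.52-fold lower than R (-1.17 ± 0.18, limma adjusted p = 9.0e-04), and both held without any 1 library. A transcript on the opposite strand, Gm20528, covers 528 of the 913 own bases, and the library kit does not mark strand, so reads of Gm20528 and Ugt1a1 cannot be told apart there. The summed urothelial markers were also lowest in RD7 and highest in BM, as given for Sult1c2, and their part was not tested.

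The other own-exon values changed less. Ugt1a7c gave 47.4 ± 3.52 FPKM in RD7, 50.8 ± 6.42 in R and 39.2 ± 9.84 in BM. Ugt1a6a gave 31.5 ± 1.93 FPKM in RD7, 29 ± 3.58 in R and 26.1 ± 5.23 in BM, and neither gene was called. These genes share a further 859 bases with each other, so each value also holds some reads of its neighbour. Ugt1a6b, a phenol-conjugating enzyme, gave 3.99, 6.92 and 5.93 FPKM in RD7, 5.14, 4.72 and 3.99 in R and 1.64, 2.83 and 2.77 in BM. This value rests on 671 reads over the 9 libraries, against 570 for Ugt1a1 and 14878 for Ugt1a7c. A further 133 bases of Ugt1a6b are shared with other Ugt1a genes, among them Ugt1a7c. Reads of Ugt1a7c may therefore make up part or all of the Ugt1a6b value, and how much was not tested. The Ugt1a6b value was higher in RD7 than in BM (1.07 ± 0.23, limma adjusted p = 0.0055), and at the threshold for R against BM (0.84 ± 0.23, limma adjusted p = 0.049; 0.161 without BM 1, 0.060 without BM 2, 0.180 without R 1, 0.157 without R 2, 0.072 without R 3 and 0.076 without RD7 3).

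Ugt2b34 (chromosome 5, 86889767 to 86906937) was the only tested gene of the Ugt2 family. It stood at 7.18, 5.73 and 6.03 FPKM in RD7, 9.71, 8.86 and 9.32 in R and 16.9, 29.2 and 19.2 in BM, with no overlap between any 2 groups. R was 2.34-fold lower than BM (-1.15 ± 0.19, limma adjusted p = 0.0037) and RD7 3.45-fold lower than BM (-1.68 ± 0.19, limma adjusted p = 1.2e-04), both in every setting. The difference between RD7 and R did not pass (-0.53 ± 0.19, limma adjusted p = 0.062).

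**Figure D4:**
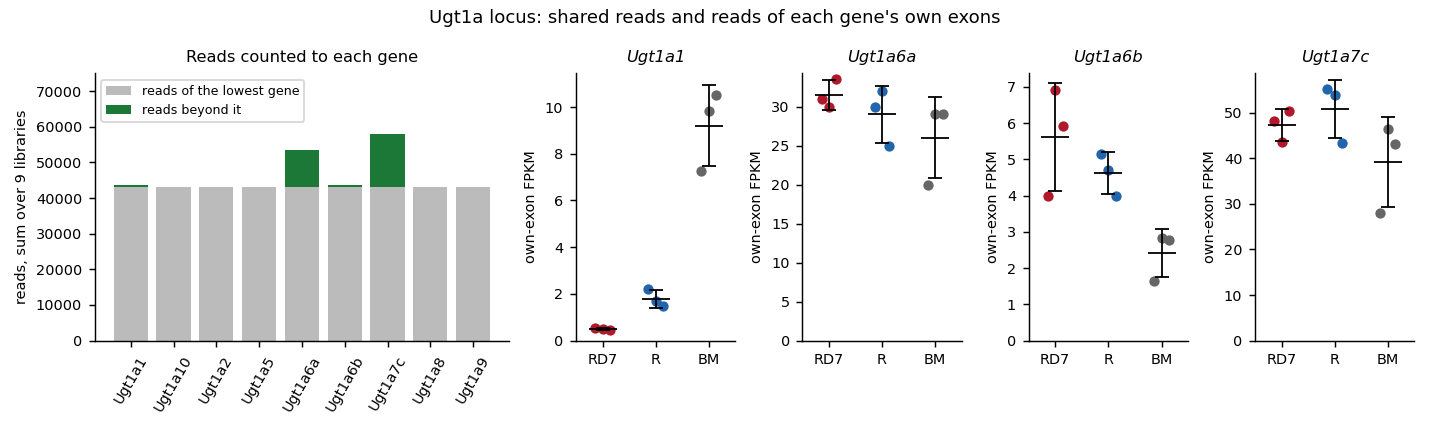
Left, reads counted to each of the 9 Ugt1a genes, summed over 9 libraries, with the 43080 reads of the gene with the fewest in grey and the reads beyond them in green. Right, own-exon FPKM of 4 genes in the 3 libraries of each group (horizontal lines are means, bars SD): Ugt1a1 is highest in BM and lowest in RD7.

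The 6 stress-response enzymes did not move as 1 group. The modifier subunit of glutamate-cysteine ligase, Gclm, is shown with its upstream sequence because it was the one that rose. The 250 bases before its start (RefSeq, GRCm38.p6, plus strand, chr3:122245307-122245556) hold 1 match on the opposite strand to TGACNNNGC, the core of the antioxidant response element that NRF2 binds, and 1 to TGTTCT, both in capitals.
Gclm: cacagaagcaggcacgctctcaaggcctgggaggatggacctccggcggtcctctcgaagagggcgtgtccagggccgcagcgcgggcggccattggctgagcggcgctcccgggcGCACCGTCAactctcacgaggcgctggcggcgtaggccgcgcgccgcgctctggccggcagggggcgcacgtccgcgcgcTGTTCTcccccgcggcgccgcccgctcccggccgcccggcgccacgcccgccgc
Gclm stood at 84.6, 93.8 and 83.3 FPKM in RD7, against 39.7, 44.5 and 38.1 in R and 36.8, 37.6 and 40.1 in BM. All RD7 libraries lay above the others (1.09 ± 0.12 against R, limma adjusted p = 8.0e-05). The catalytic subunit Gclc stood at 19.1, 14.6 and 15 FPKM in RD7, 16, 17.2 and 18.6 in R and 29.8, 32.5 and 24.9 in BM. It fell with R-spondin1 (-0.73 ± 0.15 for R against BM, limma adjusted p = 0.012; 0.065 without R 1 and 0.053 without R 2) and was not called between RD7 and R (-0.09 ± 0.15, limma adjusted p = 0.666).

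Nqo1, a quinone reductase, stood at 13.1, 12.9 and 13.3 FPKM in RD7, against 26.2, 26.5 and 22.5 in R and 9.8, 21.6 and 20.2 in BM. RD7 lay below R (-0.91 ± 0.25, limma adjusted p = 0.021; 0.060 without R 1, 0.069 without R 2, 0.061 without RD7 2 and 0.058 without RD7 3), and BM lay below R and spanned the RD7 values. The difference of Nqo1 between R and BM was not called (0.61 ± 0.25, limma adjusted p = 0.163). Txnrd1, cytosolic thioredoxin reductase, stood at 58.4, 40.3 and 41.7 FPKM in RD7, 63, 69 and 68.8 in R and 85.7, 96.5 and 73.2 in BM. RD7 was lower than R (-0.53 ± 0.17, limma adjusted p = 0.035), a call lost without R 1 (0.067), R 2 (0.105), R 3 (0.102), RD7 2 (0.127) or RD7 3 (0.112), and lower than BM in every setting (-0.87 ± 0.17, limma adjusted p = 0.0028). The call against R was also lost with no filter (0.065), median-of-ratios scaling (0.072), the length trend removed (0.073) or a replicate block (0.063). Hmox1, heme oxygenase, stood at 7.5, 7.38 and 9.33 FPKM in RD7, 9.45, 9.01 and 8.97 in R and 6.41, 6.96 and 5.24 in BM. Srxn1, sulfiredoxin, stood at 16.3, 12.6 and 15.6 FPKM in RD7, 21, 19.6 and 19.4 in R and 15, 23.9 and 15.4 in BM, and neither of these was called in any comparison.

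Other genes of glutathione supply and of the NRF2 pathway were mixed in the same way. Slc7a11, the cystine importer, fell to 2.43 ± 0.652 FPKM in RD7 against 12 ± 0.888 in R (-2.12 ± 0.29, limma adjusted p = 4.1e-04), and Gsr, glutathione reductase, fell to 99.4 ± 14 FPKM in RD7 against 177 ± 11 in R (-0.84 ± 0.14, limma adjusted p = 0.0013). Nfe2l2 itself was at 57.9 ± 4.12 FPKM in RD7 against 95.7 ± 6.03 in R (-0.72 ± 0.12, limma adjusted p = 0.0012), while its inhibitor Keap1 was not called (0.14 ± 0.14, limma adjusted p = 0.468). Ggt1, which breaks down glutathione outside the cell, was 22.7-fold higher in RD7 than in R, at 6.47 ± 0.519 FPKM against 0.285 ± 0.0596 (3.15 ± 0.15, limma adjusted p = 1.9e-07). It was lower in R than in BM, at 1.15 ± 0.173 FPKM in BM (-1.07 ± 0.15, limma adjusted p = 0.001). Gpx3, a secreted glutathione peroxidase, rose 11.3-fold to 10.6 ± 1.85 FPKM in RD7 against 0.941 ± 0.17 in R (2.94 ± 0.18, limma adjusted p = 9.6e-07). Chac1, which degrades glutathione inside the cell, rose with R-spondin1 to 39.2 ± 3.17 FPKM in R against 16.6 ± 2.92 in BM (1.22 ± 0.15, limma adjusted p = 4.8e-04) and was lower in RD7, at 11.6 ± 1.16 FPKM (-1.72 ± 0.15 against R, limma adjusted p = 1.6e-05). Slc3a2, the partner chain of Slc7a11, was at 94.8 ± 11.9 FPKM in RD7, against 170 ± 13.1 in R (-0.84 ± 0.14, limma adjusted p = 0.0014), and at 89.7 ± 9.48 in BM. Txnip, an inhibitor of thioredoxin, rose to 186 ± 33.6 FPKM in RD7 against 83.1 ± 6.21 in R (1.15 ± 0.16, limma adjusted p = 5.3e-04).

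By count, 3 of the 22 tested NRF2 target genes outside the set were higher in RD7 than in R (13.6%, against 13.3% of all genes tested), 2 were lower (9.09%, against 17.7%) and 17 were not called, with a median log2 fold change of 0.13. Of the 26 genes of glutathione synthesis, recycling and use, 4 were higher (15.4%) and 6 lower (23.1%), with a median of 0.11. Of the 14 thioredoxin and peroxiredoxin genes, 3 were higher (21.4%) and 2 lower (14.3%), with a median of 0.45. Of the 10 genes of NRF2 and its regulators, 3 were lower (30%) and 7 not called. For R against BM, where 4.36% of all genes tested were higher and 5.64% lower, 1 NRF2 target was higher and 1 lower, 4 glutathione genes were higher and 2 lower, and 1 thioredoxin or peroxiredoxin gene was higher with 13 not called. Ggt6, of the gamma-glutamyltransferase family, was higher in R, at 4.55 ± 0.431 FPKM against 1.48 ± 0.276 in BM (1.36 ± 0.15, limma adjusted p = 2.4e-04).

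More of the same lists were called between RD7 and BM, where 21.5% of all genes tested were higher and 25.3% lower. Of the 22 NRF2 targets, 11 were higher in RD7 (50%) and 5 lower (22.7%), with a median of 0.38. Fth1, the heavy chain of ferritin, stood at 1825 ± 256 FPKM in RD7 and 779 ± 346 in BM (1.31 ± 0.27, limma adjusted p = 0.0042), and Blvrb, biliverdin reductase B, at 3.75 ± 0.426 FPKM in RD7 and 1.45 ± 1.09 in BM (1.25 ± 0.31, limma adjusted p = 0.0094). Of the 26 glutathione genes, 12 were higher (46.2%) and 5 lower (19.2%), among the first Ggt6 (1.63 ± 0.15, limma adjusted p = 2.5e-05). Of the 14 thioredoxin and peroxiredoxin genes, 9 were higher (64.3%) and 2 lower (14.3%). The peroxiredoxins Prdx6 (1.25 ± 0.18, limma adjusted p = 5.1e-04) and Prdx5 (1.02 ± 0.21, limma adjusted p = 0.0042) were higher, and Txnrd3, a thioredoxin reductase, was lower (-0.59 ± 0.15, limma adjusted p = 0.012). Of the 11 genes for the supply of PAPS and UDP-glucuronic acid, 2 were higher (18.2%) and 4 lower (36.4%), among these Slc35d1, a transporter of UDP-sugars (-0.79 ± 0.16, limma adjusted p = 0.0035). Of 5 tested genes that remove sulfate or glucuronic acid, 2 were lower and 3 not called (1 was lower in RD7 than in R), and Arsb, a lysosomal sulfatase, stood at 7.4 ± 1.86 FPKM in RD7 and 15 ± 2.65 in BM (-0.99 ± 0.20, limma adjusted p = 0.0037).

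**Figure D5:**
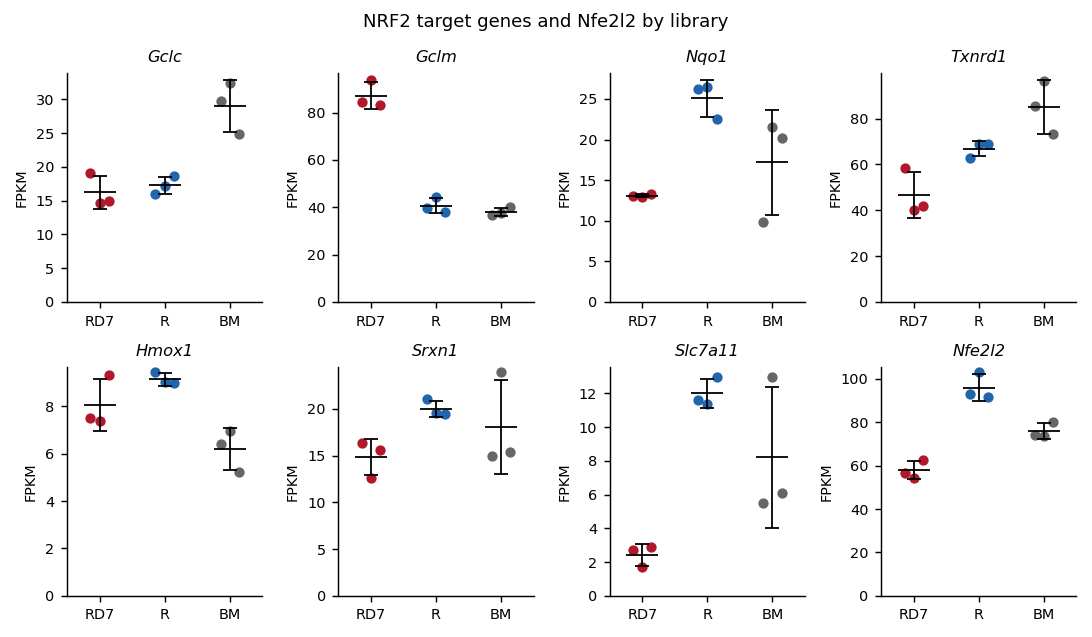
FPKM of the 6 stress-response enzymes, of Slc7a11 and of Nfe2l2 in the 3 libraries of each group, with horizontal lines for the mean and bars for the SD. Gclm is highest in RD7, Nqo1, Slc7a11 and Nfe2l2 are lower in RD7 than in R, and Gclc is highest in BM.

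The aryl hydrocarbon receptor, which induces several of these enzymes, was lower in RD7 than in R, as were 2 of 7 tested pumps that export conjugates. Of the 7 tested genes of the list with AHR and its targets, 3 were lower (42.9%, against 17.7% of all genes tested) and 4 were not called. Ahr fell to 14 ± 4.69 FPKM in RD7 against 41.8 ± 6.32 in R (-1.59 ± 0.26, limma adjusted p = 0.0014), and its targets Cyp1a1 (-1.47 ± 0.20, limma adjusted p = 4.4e-04) and Cyp1b1 (-1.14 ± 0.23, limma adjusted p = 0.0041) were lower too. Cyp1a1 was higher in R than in BM, at 3.63 ± 0.258 FPKM against 1.41 ± 0.141 (1.11 ± 0.20, limma adjusted p = 0.0061). Between RD7 and BM, 3 of the 7 were lower in RD7 (42.9%, against 25.3% of all genes tested) and 3 were not called. Ahr (-1.66, limma adjusted p = 9.9e-04) and Cyp1b1 (-1.43, limma adjusted p = 9.7e-04) were among the lower ones. Tiparp, another AHR target, was the 1 gene of the list higher in RD7 than in BM (0.93 ± 0.13, limma adjusted p = 3.7e-04). The 2 pumps (28.6%, against 17.7% of all genes tested, with 5 not called) were Abcg2, which exports sulfated steroids (-1.51 ± 0.19, limma adjusted p = 2.4e-04), and Abcb1b (-0.83 ± 0.17, limma adjusted p = 0.0043). Abcc3, which exports glucuronides, fell with R-spondin1, to 6.36 ± 1.7 FPKM in R against 32.7 ± 7.91 in BM (-2.28 ± 0.32, limma adjusted p = 0.0012). Against BM, 6 of the 7 pumps were lower in RD7 (85.7%, against 25.3% of all genes tested).

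Motifs in the upstream windows were compared with all 32851 promoters of the same length (RefSeq, GRCm38.p6). The set had 78 promoters of 64 genes. TGACNNNGC was found in 7.69% of them against 10.2% of all promoters, TGTTCT in 21.8% against 16.1%, CTTTGAA in 10.3% against 4.46% and the related core CTTTGAT in 2.56% against 3.21%, both strands searched. The 6 genes with TGACNNNGC were Gclm, Gsta3, Gstm5, Gstm7, Mgst1 and Txnrd1. Matches describe letters in the window and are not binding sites, and no test was made of these shares.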

How the data were processed

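RNA of 9 libraries was analysed, grouped by sample title and treatment label. The deposited values are FPKM, 1 per gene and library. Per the submitters' processing notes, the tools were featureCounts, STAR 2.6.1a, edgeR 3.24.1 and CASAVA 1.9 and the build was GRCm38, with no role given for any. The annotation release, strand setting and filters are not given in the sources used here. Symbols came from GENCODE M21 by gene identifier (99.5% matched, 259 identifiers not). Reads were read back from FPKM, exon length and the library's smallest step. They were whole within 0.01 of a read for 22971 of 26813 genes with the M21 length and lengths were fitted for the rest, which recovered at least 99.983% of each library's reads. Of the 74 genes, 64 had the M21 length and 10 a fitted one. Overlap with exons of other genes is given above for some genes only. It also covers 12.2% of the exon bases of Gstz1, 13.6% of Gstt3, 19.4% of Txnip, 19.1% of Prdx5 and 39.9% of Arsb, among others.

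A gene was tested where 3 or more libraries reached 0.5 CPM. Log2(FPKM + 0.5) was fitted with limma 3.58.1 in R 4.3.3 over all 9 libraries (1 mean per group, 6 residual degrees of freedom, empirical Bayes with trend and robust settings, two-sided, Benjamini-Hochberg adjustment), and the script was tested on simulated data. Floors are 3 reads per group and intervals are exact at 95%, for counting error alone. Alternatives were the pseudocount, the filter, scaling, limma-voom, length, the groups fitted, a replicate block and leaving out each library. An own-exon fit of Ugt1a genes was added after seeing the data. Python 3.11.15, pandas 2.3.3, numpy 2.4.6, scipy 1.17.1 and matplotlib 3.10.9 were used.

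The genes and lists were chosen with earlier results of these data known. The genes named are the 6 stress-response enzymes, every gene of the set called in a comparison, the highest tested gene of each family, and, of the other lists, up to 3 called genes per direction and comparison. Of these last, those whose call was lost under an alternative are counted with their list. Papss1, Keap1, the marker genes with values and the genes called in no comparison were named after their values were seen.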

Additional observations from a re-analysis of the deposited data

How the results depend on the processing

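No result changed direction under any alternative run where it had been called. For the 45 tested genes, the counts for RD7 against R (17 higher) and RD7 against BM (20 higher, 4 lower) stayed within 1.5 times under every alternative. The count of genes higher in R than in BM, 5, was 3 with a pseudocount of 0.1, with no filter, with a filter of a mean FPKM of at least 1, with the length trend removed and with the 2 groups alone, and ranged from 1 to 9 when a library was left out. It was 1 without R 1, 2 without R 2, 3 without BM 1 or BM 2 and 9 without BM 3. The count lower in R, 5, ranged from 3 (without R 1 or R 2) to 6. The count lower in RD7 than in R, 3, was 1 with no filter and 5 with the 2 groups alone, and ranged from 1 (without R 1, R 2, RD7 2 or RD7 3) to 5 (without BM 2). Why the counts moved was not tested. Whether replicate numbers pair the libraries is not stated in the labels. Deviations of same-numbered libraries correlated between -0.52 and 0.271, and those of other pairs between -0.578 and 0.577. These correlations cannot decide pairing, since the trend of each library with length also enters the deviations. With the replicate block, 15 genes were higher and 2 lower in RD7 than in R, 20 higher and 4 lower in RD7 than in BM, and 4 higher and 4 lower in R than in BM. Of 3556 single-gene values under alternatives, 3271 kept their side of the threshold, 257 lost it and 28 gained it. Some calls given above with left-out libraries were lost in other settings too. With no filter these were Gstm7 and Gsta1 for R against BM, and Gstm5, Gstp2, Mgst1 and Nqo1 for RD7 against R, among others. Depth limits the low genes: 3 reads in 1 library are 0.461 CPM in BM 1 and at most 0.188 CPM in the others.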
